A study of Homo sapiens with 6 samples.

Results

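The 10 genes HSPA5, HSP90B1, PDIA4, PDIA6, DNAJB9, DNAJC3, SDF2L1, HERPUD1, XBP1 and CRELD2 encode chaperones, folding enzymes and a transcription factor of the endoplasmic reticulum (ER) and its unfolded protein response. They were taken by name from a list, written with earlier results of these data known but using no measured value as a criterion, and their Ensembl identifiers were all found among the 20036 genes of the table. All 10 were among the 10547 genes tested, those with a mean of at least 1 FPKM over the libraries (fragments scaled to gene length and to library size). The study asked what knockdown of OGT does to gene expression in KGN, a line grown from a human ovarian granulosa cell tumour. OGT encodes the O-GlcNAc transferase, which puts a single sugar on proteins of the nucleus and cytosol. The 3 groups were siOGT1 and siOGT2, each transfected with its own small interfering RNA (siRNA) against OGT, and siNC, transfected with the control siRNA. Cells of every group carried the WT genotype, received their siRNA with Lipofectamine 3000 and were harvested 48 h later, with 2 libraries per group. All came from 1 cell line. The sources used here do not say whether a group's libraries are separate cultures, so the p-values measure only the spread between libraries, which may be technical.

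The ER folds proteins that are bound for the cell surface, for secretion or for other organelles. When unfolded protein builds up there, the sensors IRE1 (gene ERN1), PERK (EIF2AK3) and ATF6 are released from the chaperone BiP and switch on the unfolded protein response. IRE1 cuts an intron out of XBP1 mRNA in the cytosol, ATF6 is cleaved to a transcription factor, and PERK slows translation and favours that of ATF4. The spliced XBP1 protein and cleaved ATF6 raise the genes of ER chaperones and of ER-associated degradation, many of which carry an ER stress response element in their promoter. Granulosa cells secrete hormones and matrix proteins, and KGN is used as a model of them.

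The promoters, from RefSeq's GRCh38.p14 annotation, cover 250 bases before and 50 after each start that RefSeq annotates, and all 10 genes had at least 1. The ER stress element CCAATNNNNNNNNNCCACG was searched on both strands and was found in HSPA5, HSP90B1, PDIA6, XBP1 and CRELD2, against 0.0769% of 35116 promoters. Its shorter form ERSE-II, ATTGGNCCACG, was found in SDF2L1 and HERPUD1, against 0.0541% of promoters. The sites are shown because they are the feature that most of these genes share in the DNA. Capitals mark the fixed letters of the element, and each line is written on the strand on which the element reads as spelled, 5′ to 3′.
HSPA5, chr9:125241386-125241414, minus strand: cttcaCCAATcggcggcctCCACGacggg
HSP90B1, chr12:103930211-103930239, plus strand: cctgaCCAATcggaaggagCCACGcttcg
HSP90B1, chr12:103930316-103930344, minus strand: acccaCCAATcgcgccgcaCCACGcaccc
PDIA6, chr2:10812848-10812876, minus strand: ccggaCCAATgagccgcagCCACGgcttg
XBP1, chr22:28800598-28800626, minus strand: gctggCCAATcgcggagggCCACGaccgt
CRELD2, chr22:49918549-49918577, minus strand: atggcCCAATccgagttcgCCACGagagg
SDF2L1, chr22:21642109-21642129, minus strand: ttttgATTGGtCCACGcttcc
HERPUD1, chr16:56932020-56932040, plus strand: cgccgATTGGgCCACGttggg
Counted to the RefSeq start of that promoter, which can differ from the outer ends of the GENCODE genes given further on, the site lies 47 bases before the start of HSPA5, 33 before that of XBP1, 67 before that of PDIA6, 61 before that of CRELD2 and 106 before that of HERPUD1. HSP90B1 holds 2 sites, at 175 and 70 bases, and the site of SDF2L1 lies 177 bases before its start.

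PDIA4, DNAJB9 and DNAJC3 had no exact match to either full element in these windows, and sites that differ in a letter were not counted. Each of the 10 genes had at least 1 CCAAT and 1 CCACG on either strand, pieces that 34.6% and 38.1% of all promoters hold. TGACGTGG, the core of another binding site known for XBP1, was in none of the 10 and in 0.729% of promoters. A match describes letters only, and a missing match says only that they are not in this window. The DNAJC3 promoter is shown because DNAJC3 was the gene that rose with each siRNA. It is 120 bases on the plus strand that end 65 bases before the start, with CCAAT and CCACG on either strand in capitals (ATTGG is CCAAT on the other strand).
DNAJC3, chr13:95676954-95677073: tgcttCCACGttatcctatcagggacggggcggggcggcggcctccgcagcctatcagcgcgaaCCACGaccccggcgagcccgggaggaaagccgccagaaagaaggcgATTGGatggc

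The XBP1 intron that IRE1 removes is 26 bases long. GENCODE 29 draws it on the minus strand of chromosome 22, at bases 28796122 to 28796147 of GRCh38. It is shown in capitals with 12 bases of exon on each side, since the deposited values count reads per gene and so cannot separate the mRNA with and without it. The last bases before it are the same as its own last bases, so its edges can also be drawn a few bases further towards the 5′ end. The capitals follow the annotation and need not begin and end where IRE1 cuts.
XBP1, chr22:28796110-28796159: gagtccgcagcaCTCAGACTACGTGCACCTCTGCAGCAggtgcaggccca

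Library totals, recovered from the FPKM values, were 18408360 and 21416489 reads with siOGT1, 18123136 and 16756649 with siOGT2, and 20152533 and 20113114 with siNC. OGT itself stood at 13.8 and 12.9 FPKM with siOGT1 and at 14.3 and 14.7 with siOGT2, against 22.4 and 23.4 with siNC, so its values went the way of the labels. Of 12 granulosa markers 6 were tested: NR5A1 averaged 19.3 FPKM and FOXL2 5.7, while FSHR was listed at 0 in every library and CYP19A1, the aromatase gene, in 5 of 6. The 12 markers summed to between 40.1 and 42.7 FPKM in the siOGT libraries and to 36.9 and 38.3 in the siNC libraries. Of the 6 tested, INHBB and STAR, at means of 3.21 and 1.75 FPKM, were called higher with each siRNA (adjusted p under 0.05 in limma). NR5A1 was called higher with siOGT1 only, and 0 of the 6 were called lower. This stands beside 17.6% of all genes called in either direction with siOGT1 and 35.5% with siOGT2. None of 8 leukocyte markers reached a mean of 1 FPKM, with LYZ listed at 0 and sums of 0.475 to 0.683 FPKM in siOGT and 0.817 and 0.91 in siNC libraries. Of 6 plasma cell markers, which mark a cell with much ER, SDC1 and PRDM1 were tested and JCHAIN, MZB1, TNFRSF17 and IRF4 averaged at most 0.155 FPKM, and the 6 summed to 10.8 to 11.7 FPKM in siOGT and 9.42 and 9.3 in siNC libraries. SDC1 alone was higher, called so with each siRNA, with 6.24 to 7.71 FPKM in siOGT and 4.57 and 4.54 in siNC libraries. PRDM1 had 3.605 to 4.41 FPKM in siOGT and 4.38 and 4.42 in siNC libraries, and was called lower with siOGT2 and not with siOGT1. TEK was the only one of 5 endothelial markers tested, with sums of 2.08 to 2.67 FPKM in siOGT and 2.78 and 2.95 in siNC libraries. Mitochondrial transcripts took 2.07% and 2.09% of reads with siOGT1 and 2.31% and 2.34% with siOGT2, against 2.01% and 1.99% with siNC. The part of these markers and shares in the results was not tested.

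With OGT knocked down, 1 of the 10 genes, DNAJC3, rose with each siRNA, while HSPA5, the gene of BiP, averaged 76.3 ± 0.721 FPKM with siOGT1 and 75.5 ± 1.90 with siOGT2, against 74.8 ± 1.76 with siNC (SD, n = 2 each). DNAJC3 reached 117.5% of its siNC level with siOGT1, and 117.7% with the other siRNA. XBP1 rose with siOGT1, to 109.2%, and its 104.2% with siOGT2 did not pass the test. For the remaining 8 no change with either siRNA passed, and no gene of the 10 was called lower against siNC. In bulk RNA a change in the RNA of each cell and a change in the number of cells that hold it cannot be told apart.

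**Figure D1:**
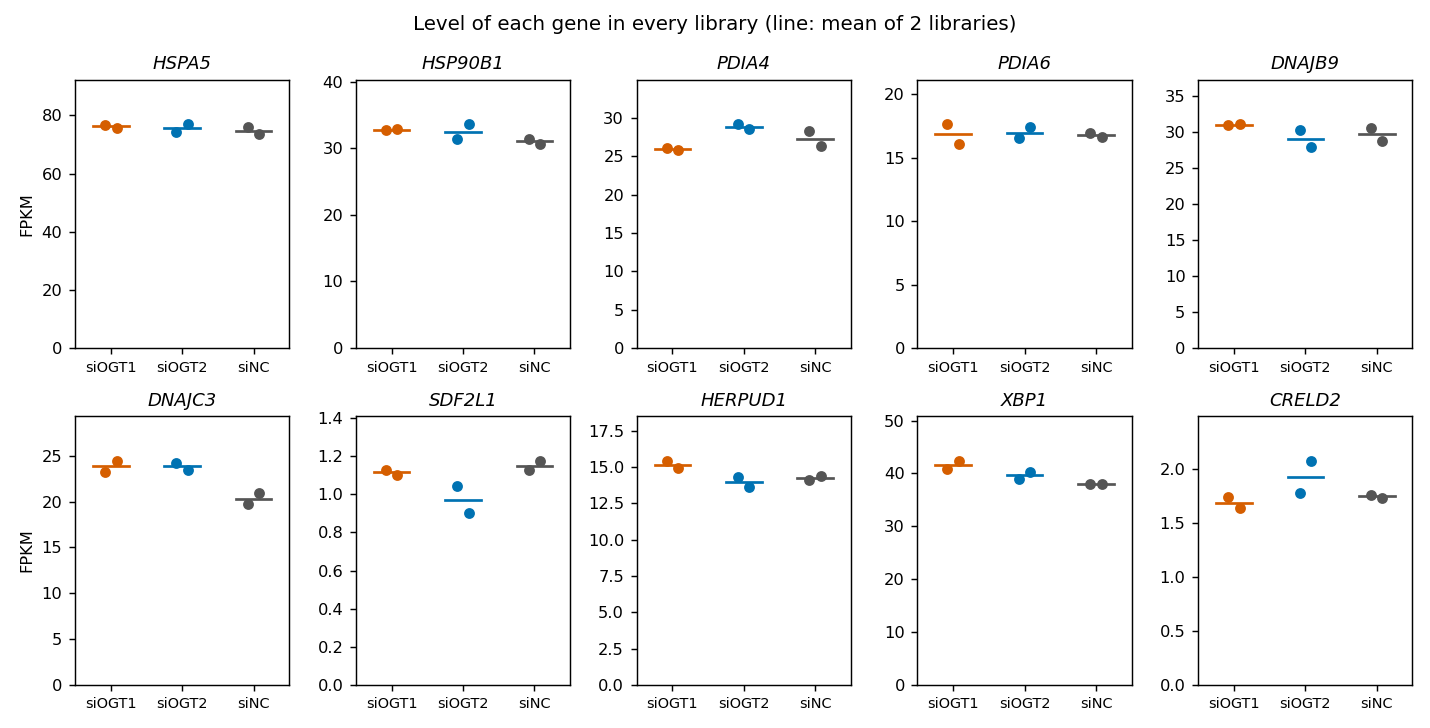
Level of each of the 10 genes in FPKM (vertical axes, each from 0) in the 2 libraries of siOGT1, siOGT2 and siNC. Points are libraries and lines are group means; DNAJC3 and XBP1 are the genes whose 4 siOGT libraries all lie above both siNC libraries.

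Counted over the genes, 2 of the 10 rose with siOGT1, DNAJC3 and XBP1, where 17.6% of all genes tested passed in either direction and 9.51% as higher and 8.1% as lower. With siOGT2 it was 1 of 10, DNAJC3, where 35.5% of all genes passed and 22.1% as higher and 13.4% as lower. In the mean of both siRNAs against siNC it was again DNAJC3 and XBP1, 2 of 10, beside 31.1% of all genes in either direction and 19.4% higher and 11.8% lower. A change was called at an adjusted p (Benjamini-Hochberg) under 0.05 in limma, over all genes tested. DNAJC3 was called higher with each siRNA, as were 7.25% of all genes, and none of the 10 was called lower with each, as were 5.11%. Both siRNAs share the siNC libraries, so their contrasts are not independent. Over either direction, the 20% called among the 10 with siOGT1 stood near the share of all genes, and the shares with siOGT2 and in the mean stood below it; as higher, 2 of 10 with siOGT1 is above the 9.51% of all genes, a difference of about 1 gene.

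Read as levels, in 2 of the 10 genes, DNAJC3 and XBP1, all 4 siOGT libraries lay above both siNC libraries, which was so for 28.4% of all genes. In none of the 10 did all 4 lie below, which was so for 13.3%. The median log2 fold change of the 10 was 0.04 with siOGT1 and 0.04 with siOGT2, and 0.03 for the mean of both. Over all genes tested these medians were 0.03, 0.04 and 0.04. Summed over the 10 genes, the level was 266.5 and 265.9 FPKM with siOGT1 and 262.0 and 264.7 with siOGT2, against 258.0 and 252.1 with siNC, a sum in which HSPA5 weighs most.

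HSPA5 encodes BiP, the main Hsp70 chaperone of the ER and the protein that holds the stress sensors inactive. It lies on chromosome 9 (125234853 to 125241330, minus strand, GRCh38). Its level was 76.8 and 75.8 FPKM with siOGT1 and 74.2 and 76.9 with siOGT2, against 76.0 and 73.5 with siNC. The groups overlapped, and the 6 libraries lay within a few FPKM of each other. The log2 fold change was 0.03 (95% interval -0.04 to 0.10) with siOGT1 and 0.01 (-0.06 to 0.09) with siOGT2, in limma's fit. For the mean of both siRNAs, this is a fold of 1.015 with an interval of 0.972 to 1.060 on the FPKM + 1 scale. Between 8412 and 10598 reads per library lay behind these values.

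HSP90B1 encodes GRP94, the Hsp90 chaperone of the ER, which folds integrins and Toll-like receptors among others (chromosome 12, 103930107 to 103953645, plus strand). It stood at 32.8 FPKM in both siOGT1 libraries and at 31.4 and 33.6 with siOGT2, against 31.4 and 30.6 with siNC. Its siOGT1 libraries lay above both of siNC, while 1 of siOGT2 was level with the higher siNC library. No contrast passed: log2 fold changes were 0.08 with siOGT1 (adjusted p = 0.193), 0.06 with siOGT2 (adjusted p = 0.216) and 0.07 for the mean of both (adjusted p = 0.131), in limma. The mean of both did pass with the count-based weights of voom on recovered reads (log2 fold change 0.07, adjusted p = 0.0351).

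Of the disulfide-forming enzymes, PDIA4 encodes ERp72, a protein disulfide isomerase with several thioredoxin-like domains (chromosome 7, 149003062 to 149028641, minus strand). It measured 26.1 and 25.8 FPKM with siOGT1 and 29.2 and 28.6 with siOGT2, against 28.3 and 26.3 with siNC. The siOGT1 libraries lay below and the siOGT2 libraries above both siNC libraries. Against siNC neither passed: the log2 fold change was -0.07 with siOGT1 (adjusted p = 0.251, limma) and 0.08 with siOGT2 (adjusted p = 0.154).

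PDIA6, or P5, another protein disulfide isomerase of the ER that also acts on IRE1 and PERK (chromosome 2, 10783391 to 10837977, minus strand), had 17.6 and 16.1 FPKM with siOGT1 and 16.5 and 17.5 with siOGT2, against 16.9 and 16.7 with siNC. The siNC values lay inside the range of either siOGT group. Its log2 fold changes were 0.00 with siOGT1 (95% interval -0.10 to 0.11, limma) and 0.02 with siOGT2 (-0.09 to 0.12). CRELD2, a secreted and ER-resident protein induced by ER stress (chromosome 22, 49918167 to 49927540, plus strand), was low. It had 1.74 and 1.64 FPKM with siOGT1 and 1.77 and 2.07 with siOGT2, against 1.76 and 1.73 with siNC. The siOGT1 libraries reached lower and the siOGT2 libraries higher than siNC, and the intervals were wide, -0.19 to 0.13 with siOGT1 and -0.07 to 0.25 with siOGT2 on the log2 scale, from 165 to 183 reads per library.

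DNAJC3 encodes p58IPK, a J-domain protein of the ER lumen that brings unfolded protein to BiP and is also known as an inhibitor of PERK and related kinases (chromosome 13, 95677139 to 95794989, plus strand). Its level was 23.3 and 24.4 FPKM with siOGT1 and 24.3 and 23.5 with siOGT2, against 19.7 and 20.9 with siNC. All 4 siOGT libraries were above both siNC libraries, and the siOGT groups overlapped each other. The log2 fold change was 0.22 with siOGT1 (SE 0.0418, limma adjusted p = 0.00615) and 0.22 with siOGT2 (adjusted p = 0.00341). Averaged over the siRNAs it was 0.22 (SE 0.0362, adjusted p = 0.00184), a fold of 1.168 with a 95% interval of 1.104 to 1.236. Without siNC replicate 1, the lower of the controls, the siOGT1 call was lost (log2 fold change 0.18, adjusted p = 0.0591), while the siOGT2 call and that of the mean remained with any 1 library left out. Between 2201 and 2924 reads per library were counted.

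DNAJB9 encodes ERdj4, a J-domain protein that returns IRE1 to BiP and helps degradation (chromosome 7, 108569568 to 108574850, plus strand). Its values were 30.9 and 31.04 FPKM with siOGT1 and 30.3 and 27.9 with siOGT2, against 30.6 and 28.8 with siNC. The siOGT1 libraries lay just above both siNC libraries, and those of siOGT2 overlapped them. The changes, 0.06 and -0.03 on the log2 scale with siOGT1 and siOGT2, did not pass in limma (adjusted p = 0.394 and 0.647). So of the J-domain partners of BiP among the 10, DNAJC3 was called and DNAJB9 was not, though the difference between the genes was not tested.

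SDF2L1, which keeps BiP's J-domain partners and their clients soluble (chromosome 22, 21642261 to 21644298, plus strand), was just above the level needed for testing. It had 1.13 and 1.10 FPKM with siOGT1 and 1.04 and 0.902 with siOGT2, against 1.13 and 1.17 with siNC. Both siOGT2 libraries lay below both of siNC, and those of siOGT1 overlapped them. Only 16 to 25 reads per library lay behind them, and the change of -0.12 with siOGT2 had an interval from -0.29 to 0.04 on the log2 scale, so it did not pass (adjusted p = 0.206, limma). That value depends on the pseudocount, with -0.22 at a pseudocount of 0.1 and -0.04 at 5.

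HERPUD1 encodes HERP, a membrane protein of the complex that sends misfolded proteins out of the ER for degradation (chromosome 16, 56932048 to 56944863, plus strand). It measured 15.4 and 14.9 FPKM with siOGT1 and 14.3 and 13.6 with siOGT2, against 14.1 and 14.4 with siNC. The siOGT1 libraries were the highest of the 6, and 1 of siOGT2 was the lowest. Neither change passed, 0.08 with siOGT1 (adjusted p = 0.188) and -0.02 with siOGT2 (adjusted p = 0.679) on the log2 scale in limma.

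XBP1, the transcription factor made by IRE1's splicing (chromosome 22, 28794555 to 28800597, minus strand), stood at 40.8 and 42.3 FPKM with siOGT1 and at 39.0 and 40.3 with siOGT2, against 38.1 and 38.0 with siNC. All 4 siOGT libraries lay above both siNC libraries, those of siOGT1 highest. With siOGT1 the log2 fold change was 0.12 (SE 0.0334, limma adjusted p = 0.0321). The siOGT2 value, 0.06, missed the threshold (adjusted p = 0.204), and so did siOGT1 against siOGT2 at 0.07 (adjusted p = 0.22). In the mean it was 0.09 (SE 0.0289, adjusted p = 0.04). These calls were marginal: with siOGT1 the adjusted p was 0.129 without siNC replicate 1, 0.134 without siNC replicate 2 and 0.152 without siOGT1 replicate 2. For the mean it was 0.159 and 0.174 without siNC replicates 1 and 2, 0.0831 without siOGT1 replicate 2 and 0.102 without siOGT2 replicate 2, and 0.22 after scaling by a trimmed mean of log ratios.

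**Figure D2:**
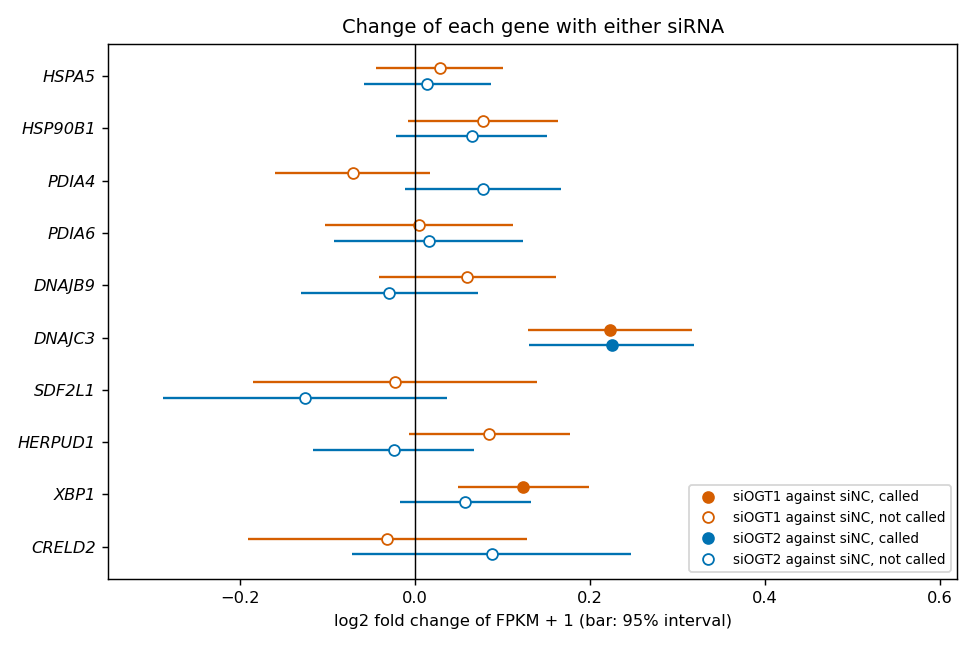
Log2 fold change of FPKM + 1 against siNC (horizontal axis) for each of the 10 genes with siOGT1 and siOGT2; bars are 95% intervals from limma, and filled points passed at an adjusted p under 0.05. DNAJC3 lies at 0.22 with each siRNA, and the intervals of the others, except XBP1 with siOGT1, cross 0.

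Between the siRNAs, 1 of the 10 genes differed, beside 16.6% of all genes (8.35% higher and 8.24% lower with siOGT1). PDIA4 was lower with siOGT1 than with siOGT2, by -0.15 on the log2 scale (SE 0.0395, limma adjusted p = 0.0311), with group means of 25.9 ± 0.217 and 28.8 ± 0.418 FPKM (SD, n = 2 each). The call was lost when any 1 of these 4 libraries was left out (adjusted p = 0.0792 and 0.11 without siOGT1 replicates 1 and 2, 0.139 and 0.0956 without siOGT2 replicates 1 and 2). HERPUD1 was 0.11 higher with siOGT1 and did not pass (adjusted p = 0.105), and DNAJC3 differed by 0.00 (95% interval -0.10 to 0.09).

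In order of level, HSPA5 averaged 75.5 FPKM over the 6 libraries and XBP1 39.7. Then came HSP90B1 at 32.1, DNAJB9 at 29.9, PDIA4 at 27.4, DNAJC3 at 22.7, PDIA6 at 16.9 and HERPUD1 at 14.4, and far below them CRELD2 at 1.78 and SDF2L1 at 1.08. The library values of HSP90B1 and DNAJB9 overlapped, as did those of DNAJB9 and PDIA4, while the other neighbours in this order did not overlap. FPKM divides by a gene length, and the length behind the values, recovered with the reads, was 6530 bases for HSPA5 and 13092 for HSP90B1, where the exons of GENCODE 29 cover 3908 and 4695. Rescaled to those exon lengths, HSPA5 would average 126 and HSP90B1 89.5, which puts HSP90B1 above XBP1. Ratios of FPKM between groups do not depend on this length. Log2 fold changes of FPKM + 1 depend on it through the added 1, most for low genes, as does the filter at a mean of 1 FPKM. Genes on the opposite strand overlap HSP90B1, PDIA6, DNAJB9 and CRELD2, small mitochondrial pseudogenes lie within DNAJC3, and XBP1 has a pseudogene; whether the counting used strand is not stated in these sources, so reads of such partners cannot be told apart.

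The rest of the ER folding and stress machinery was counted over 7 lists written from textbook knowledge. They hold 119 genes beyond the 10, of which 112 were tested. In the mean of both siRNAs 31 of the 112 rose and 8 fell, 34.8% together beside the 31.1% of all genes, with a median log2 fold change of 0.06 beside 0.04 over all genes. With siOGT1 20 rose and 9 fell, 25.9% beside 17.6% of all genes, and with siOGT2 37 rose and 12 fell, 43.8% beside 35.5%. The counts of single lists that follow are for the mean of both siRNAs unless a siRNA is named, and stand beside 31.1% of all genes there, 17.6% with siOGT1 and 35.5% with siOGT2. After scaling by a trimmed mean of log ratios, 20 of the 112 rose and 14 fell in the mean of both, 10 and 10 with siOGT1, and 21 and 14 with siOGT2. Of all 10547 genes, 1114 rose and 1653 fell in the mean under this scaling. With siOGT1 it was 546 and 1012 of all genes, and with siOGT2 1363 and 1868. Counts of single lists under this scaling stand beside these. These counts depended on single libraries. With 1 library of the groups compared left out, fewer of the 112 genes passed in the mean and with each siRNA. Fewer of all genes passed as well. The median log2 fold change of the 112 in the mean was then 0.05 to 0.06. Counts of single lists with 1 library left out, given below, likewise stand beside fewer calls among all genes.

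Of the sensors themselves, none passed in the mean of both siRNAs. ERN1 stood at 1.47 ± 0.0014 FPKM with siOGT1 and 1.40 ± 0.0418 with siOGT2, against 1.46 ± 0.0402 with siNC (adjusted p = 0.871, limma). EIF2AK3 was as low, at 1.40 ± 0.0881 and 1.28 ± 0.029 FPKM with siOGT1 and siOGT2 and 1.38 ± 0.0426 with siNC (adjusted p = 0.811, limma). ATF6 had 13.5 ± 0.0821 FPKM with siOGT1 and 12.7 ± 0.239 with siOGT2, against 12.2 ± 0.174 with siNC, all 4 siOGT libraries above both siNC libraries. ATF6 was called higher with siOGT1 (log2 fold change 0.14, adjusted p = 0.0359, limma) and not with siOGT2 (0.05, adjusted p = 0.29), and siOGT1 against siOGT2 missed too (adjusted p = 0.183). The siOGT1 call was lost without siNC replicate 1 or 2 (adjusted p = 0.169 and 0.103), without siOGT1 replicate 1 or 2 (0.0989 and 0.131), and with the replicate number as a block (0.0518). In the mean ATF6 missed at 0.10 (adjusted p = 0.053), and it passed there with voom on recovered reads (adjusted p = 0.00787) and among genes of at least 5 FPKM (adjusted p = 0.0421).

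Among the sensors and signalling genes, 4 of 12 tested rose and 1 fell with siOGT1, and 3 rose and none fell with siOGT2. In the mean 3 rose and none fell, the 3 related to ATF6 in that they encode membrane-bound factors released by cleavage. CREB3L2 rose by 0.26 on the log2 scale (adjusted p = 0.000314, limma) and CREB3L1 by 0.29 (adjusted p = 0.000962). CREB3 rose by 0.14, a call lost without siNC replicate 1 (adjusted p = 0.052). The levels of CREB3L1, known for raising collagen secretion, were 14.0 and 15.1 FPKM with siOGT1 and 14.4 and 15.4 with siOGT2, against 12.1 and 11.5 with siNC.

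Of the other Hsp70 and J-domain proteins of the ER, 4 of 15 rose and 1 fell, with 3 and 0 for siOGT1 and 4 and 1 for siOGT2. Without siNC replicate 1 it was 2 and 0, and 2 and 1 without siNC replicate 2, siOGT1 replicate 1 or siOGT2 replicate 2. DNAJC10, a J-domain protein with disulfide reductase activity, rose by 0.19 (adjusted p = 0.00502, limma). HYOU1, an Hsp70-like exchange factor of BiP, stood at 11.6 and 11.4 FPKM with siOGT1 and 11.4 in both libraries with siOGT2, against 10.3 and 10.0 with siNC. HYOU1 rose by 0.16 (adjusted p = 0.00632), and the call was lost without siNC replicate 2 (adjusted p = 0.0625). FICD, which adds and removes AMP on BiP, fell by 0.18 in the mean, a call lost without siNC replicate 1 (log2 fold change -0.16). FICD was called lower with siOGT2 (-0.27, adjusted p = 0.00128, limma) and not with siOGT1 (-0.09, adjusted p = 0.192). The siRNAs differed by 0.185 (adjusted p = 0.0156, limma), a call lost with no filter (0.0562) and without some single libraries.

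Folding enzymes that make disulfides rose in 6 of 16 cases and fell in 1, with 5 and 1 for siOGT1 and 8 and 1 for siOGT2. PRDX4, a peroxiredoxin that turns hydrogen peroxide into disulfides in the ER, averaged 42.1 and 47.8 FPKM with siOGT1 and siOGT2, against 25.8 with siNC. The membrane-bound thioredoxin-like TMX3 and TMX4 rose by 0.21 and 0.27, while TMX1 fell by 0.27 (adjusted p = 0.0011, limma). In the calnexin cycle, which folds glycoproteins, 3 of 10 rose and none fell in the mean, and without siNC replicate 1 it was 1. With siOGT1 3 rose and 1 fell, and with siOGT2 3 rose and none fell. CANX, the gene of calnexin itself, named here after its values were seen, had 73.0 and 70.9 FPKM with siOGT1 and 84.8 and 84.7 with siOGT2, against 78.0 and 80.5 with siNC. CANX fell by 0.14 with siOGT1 (adjusted p = 0.0149, limma), rose by 0.09 with siOGT2 (adjusted p = 0.0392) and differed between the siRNAs by -0.23 (adjusted p = 0.00103). Its siOGT1 call was lost without siNC replicate 2 or siOGT1 replicate 2 (adjusted p = 0.113 and 0.0712). Its siOGT2 call was lost without siNC replicate 1 or 2 (adjusted p = 0.217 and 0.068), siOGT2 replicate 1 or 2 (0.126 and 0.131), with the replicate number as a block (0.0533), and after scaling by a trimmed mean (0.315) or to equal sums (0.127), while that between the siRNAs held in every setting run. GANAB, the catalytic subunit of glucosidase II, averaged 85.0 FPKM with siOGT1 and 90.1 with siOGT2, against 52.1 with siNC.

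For ER-associated degradation, where HERPUD1 acts, none of 23 rose and 1 fell with siOGT1, and 3 rose and 3 fell with siOGT2. In the mean of both 5 rose and 2 fell. That count changed most with 1 control left out, with 0 higher and 1 lower without siNC replicate 1, 1 each without siNC replicate 2, and 2 each without siOGT1 replicate 1 or siOGT2 replicate 2. After scaling by a trimmed mean of log ratios or to equal sums, 1 rose and 3 fell. Of all genes, 1114 rose and 1653 fell under the trimmed mean, and 1679 and 1366 with equal sums. FAF2, which recruits the segregase that extracts proteins from the membrane, fell by 0.19 (adjusted p = 0.0018, limma). SEL1L, the scaffold of the HRD1 ubiquitin ligase, rose by 0.17, a call lost without siNC replicate 1 (adjusted p = 0.0801). Of 18 genes of translocation into the ER, 3 rose and 2 fell with siOGT1, and 10 rose and none fell with siOGT2. In the mean 5 rose and none fell. Without either siNC replicate, or without siOGT2 replicate 2, 3 rose, while after scaling by a trimmed mean of log ratios 2 rose and 1 fell. SEC61G, a subunit of the Sec61 channel, rose by 0.28 and SRPRB, of the signal recognition particle receptor, by 0.22 (adjusted p = 0.000823 and 0.00116, limma).

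Targets of the PERK and ATF4 branch went both ways. With siOGT1 2 of 18 were higher and 3 lower, with siOGT2 6 and 7, 72.2% beside 35.5% of all genes, and in the mean 5 and 4. The mean gave 4 higher and 8 lower after scaling by a trimmed mean of log ratios, beside 1114 higher and 1653 lower of all genes. ATF4 itself had 277.8 ± 13.4 FPKM with siOGT1 and 283.9 ± 0.347 with siOGT2, against 293.4 ± 10.1 with siNC, and did not pass (adjusted p = 0.184, limma). Without siOGT1 replicate 2 it passed as lower (log2 fold change -0.09, adjusted p = 0.0486), as it did after scaling by a trimmed mean (-0.10, adjusted p = 0.0387). DDIT3 encodes CHOP, the factor of prolonged ER stress. It had 81.1 and 90.6 FPKM with siOGT1 and 69.7 and 77.5 with siOGT2, against 87.0 and 75.8 with siNC. Each siOGT group overlapped siNC, while both siOGT1 libraries lay above both siOGT2 libraries. In limma siOGT1 against siOGT2 gave 0.22 and missed the threshold (adjusted p = 0.0734). That contrast was called with voom on recovered reads (0.23, adjusted p = 0.00202) and with equal sums (0.24, adjusted p = 0.0363). Voom also called DDIT3 lower with siOGT2 than with siNC (-0.15, adjusted p = 0.0333), which limma did not (-0.14, adjusted p = 0.158). ATF3 averaged 52.4 ± 3.13 FPKM with siOGT1 and 34.9 ± 0.866 with siOGT2, against 65.8 ± 0.708 with siNC, and PPP1R15A, which ends the PERK signal, fell by 0.32 (adjusted p = 5.39e-05, limma). TRIB3, a pseudokinase induced by ATF4 and CHOP, rose by 0.42, with 15.9 and 17.1 FPKM with siOGT1 and siOGT2 against 12.1 with siNC. Between the siRNAs, 6 of these 18 genes were higher and 4 lower with siOGT1, 55.6% beside 16.6% of all genes.

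**Figure D3:**
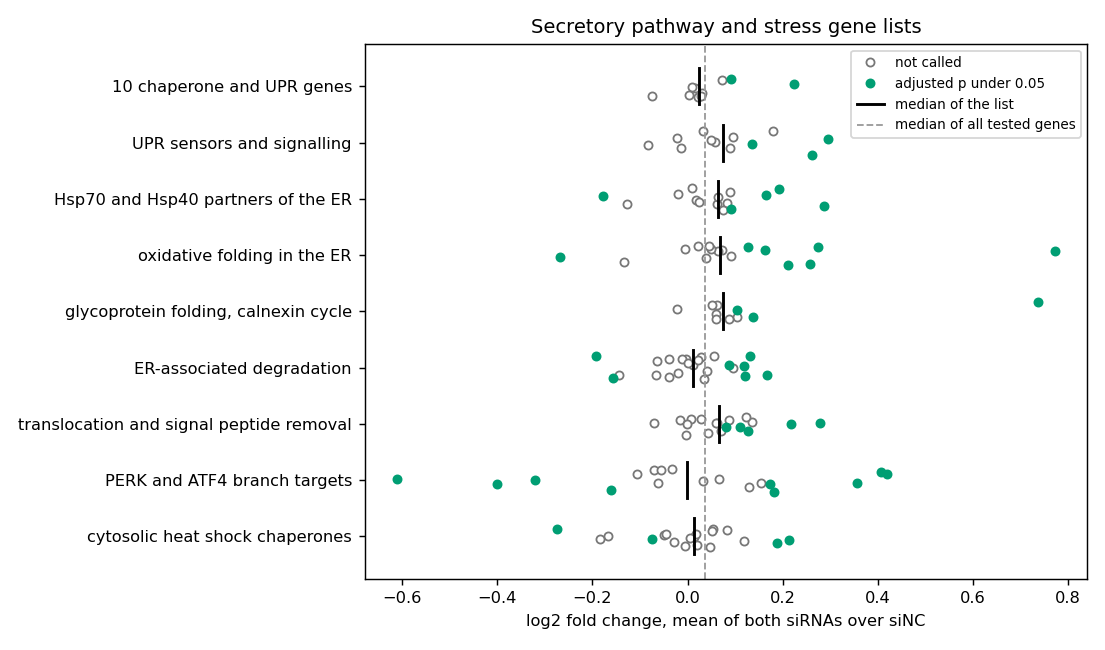
Log2 fold change of FPKM + 1, mean of both siRNAs over siNC (horizontal axis), for each tested gene of the 10 and of 8 lists (rows). Each point is 1 gene, filled where it passed at an adjusted p under 0.05; black bars are list medians and the dashed line the median of all genes at 0.04, and PRDX4 at 0.77 and GANAB at 0.74 lie farthest right.

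Beyond the 10, few genes carry the same promoter element. Of all genes tested, 29 had an ER stress element of either form in a promoter, 7 of them among the 10. Of these 7, 1 rose in the mean of both siRNAs, XBP1 by its marginal call, none fell, beside 19.4% of all genes higher and 11.8% lower, and their median log2 fold change was 0.03. Of the other 22, 8 rose and 4 fell in the mean, beside the same shares of all genes, with a median of 0.03 and a range of -0.73 to 0.40. HYOU1 was among those that rose and FICD among those that fell. With siOGT1 6 of the 22 rose and 4 fell, beside 9.51% and 8.1% of all genes. With siOGT2 11 rose and 4 fell, beside 22.1% and 13.4%. Of the 7, 1 rose with siOGT1 and 0 with siOGT2, and 0 fell with either. The element was present in genes of either direction. DNAJC3, the gene of the 10 called with each siRNA, had no exact match in the window searched, and sites that differ from the element in a letter were not searched for. The part of the element in these changes was not tested.

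**Figure D4:**
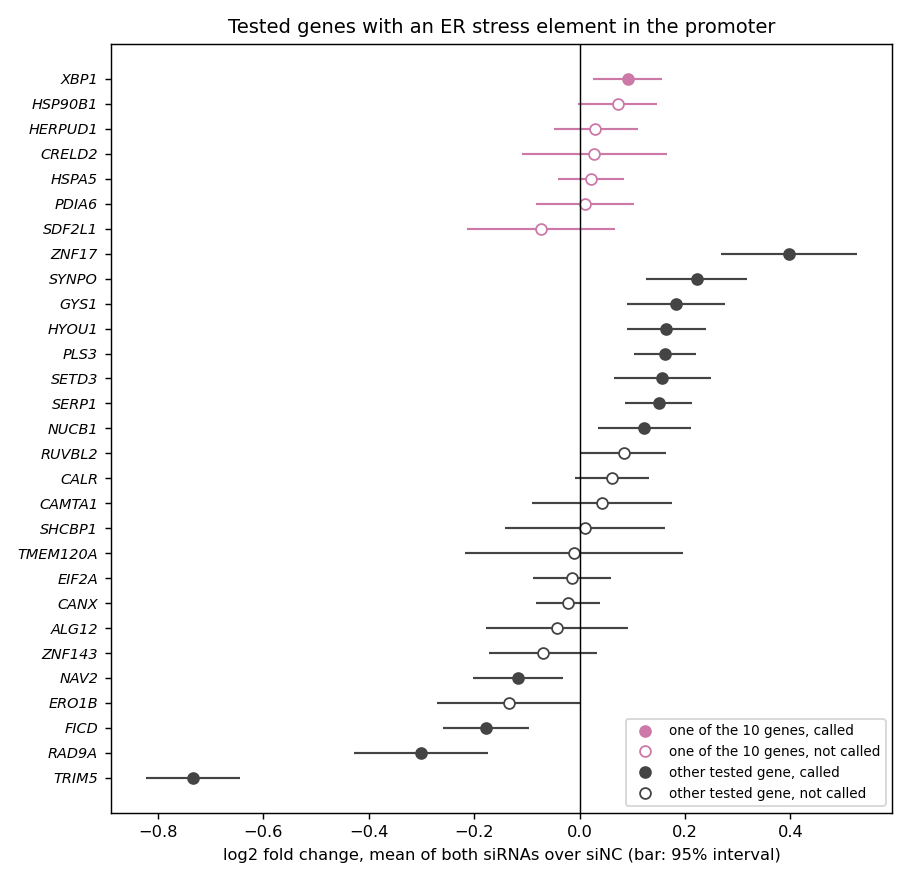
Log2 fold change of FPKM + 1, mean of both siRNAs over siNC (horizontal axis), for the tested genes with either ER stress element in a promoter (rows); bars are 95% intervals and filled points passed at an adjusted p under 0.05. The 7 genes of the 10 stand at the top, from 0.09 for XBP1 down to -0.07 for SDF2L1, within the spread of the other 22.

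By Pearson's r of log2(FPKM + 1) over the 6 libraries, genes whose pattern was most like that of HSPA5 included AP2A2 (0.990), TMEM59 (0.989), DHTKD1 (0.981) and BICRA (0.968). They are given as a description, since HSPA5 varied little between libraries and the highest of 10547 correlations over 6 points are high in any case.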

How the data were processed

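RNA of 6 KGN libraries was sequenced. Cutadapt 1.15, HISAT2 (no version) and GRCh38 are named in the submitters' processing notes. No source used here gives the counting program, the annotation or the strand setting. The authors deposited FPKM values for 20036 Ensembl genes, 1 column per library. Of the identifiers, 19902 were given a symbol.

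Whole reads, within 0.01, were recovered from the FPKM for 99.64% of the genes tested, and give the depth and 1 alternative test (voom). Genes with a mean of at least 1 FPKM were tested on log2(FPKM + 1), which understates the change of low genes, with limma 3.58.1 in R 4.3.3 (1 mean per group over all 6 libraries, trended eBayes, two-sided, Benjamini-Hochberg adjustment over all genes tested). The prior gave 6.31 degrees of freedom beside 3 residual ones. The code was tested on simulated data. With 2 libraries per group, SD and n refer to libraries.

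The members and lists were chosen with earlier results of these data known. Named outside the 10 were OGT, the sensors, ATF4, DDIT3, up to 4 genes of each list called in the mean contrast with the smallest p, and the 5 genes most like HSPA5, of which 1 is not reported here. Cell type markers were given as levels, with the calls against siNC of those that passed with a siRNA. Alternatives varied the pseudocount (0.1, 5), the filter (none, 5 FPKM), the scaling, the variance model, the groups fitted, a replicate block, and each library left out. Protein sequences were not used here.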

Additional observations from a re-analysis of the deposited data

Results flagged for a closer look

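PDIA4, the gene of the disulfide isomerase ERp72, differed between the siRNAs in the test of the difference itself, with a log2 fold change of -0.149 for siOGT1 against siOGT2 (adjusted p = 0.0311, limma). Its 2 siOGT1 libraries lay below and its 2 siOGT2 libraries above both siNC libraries. The call was lost without any 1 of these 4 libraries (adjusted p between 0.0792 and 0.139), with no filter (0.0862), with no intensity trend (0.0824) and under a trimmed mean of log ratios (0.0522). The cause was not tested.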

How the results depend on the processing

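DNAJC3 passed with siOGT2 and in the mean of both siRNAs under all alternatives run. With no filter, 1138 genes passed with siOGT1 and 1017 between the siRNAs. With no filter, under a trimmed mean of log ratios and with no intensity trend, 1 of the 10 genes passed with siOGT1, 1 in the mean of both and 0 between the siRNAs; with equal sums 1 passed in the mean. Voom called 2533, 4201, 3836 and 2273 genes with siOGT1, siOGT2, their mean and between the siRNAs, and 3 of the 10 in the mean. With 1 library left out, 945 to 1737 genes passed with siOGT1, 2222 to 3749 with siOGT2, 1654 to 2971 in the mean and 816 to 1533 between siRNAs, and of the 10 genes 0 to 2, 1 to 1, 1 to 2 and 0 to 1. The trimmed mean turned 2041 higher and 1243 lower genes in the mean into 1114 and 1653, 1003 and 854 with siOGT1 into 546 and 1012, and 2329 and 1411 with siOGT2 into 1363 and 1868. The cause was not tested.

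Some log2 fold changes near 0 turned sign. With equal sums these were PDIA6 (-0.001 with siOGT1, -0.006 with siOGT2, -0.004 in the mean, 0.005 between siRNAs), HSPA5 (-0.009 with siOGT2), PDIA4 (-0.011 in the mean) and DNAJC3 (0.015 between siRNAs). Under the trimmed mean they were HSPA5 (-0.006, -0.035 and -0.021 with siOGT1, siOGT2 and the mean), PDIA6 (-0.029, -0.032 and -0.030, and 0.003 between siRNAs), PDIA4 (-0.038), DNAJB9 (-0.026) and HERPUD1 (-0.009) in the mean, and DNAJC3 (0.013 between siRNAs). With 1 library left out, PDIA6 ran from -0.057 to 0.066 with siOGT1, -0.021 to 0.053 with siOGT2, -0.020 to 0.041 in the mean and -0.073 to 0.050 between siRNAs. HSPA5 ran from -0.011 to 0.040 with siOGT2, -0.002 to 0.045 in the mean and -0.011 to 0.040 between siRNAs, DNAJB9 from -0.085 to 0.027 with siOGT2 and -0.026 to 0.057 in the mean, and PDIA4 from -0.046 to 0.053 in the mean. HERPUD1 ran from -0.060 to 0.012 with siOGT2, CRELD2 from -0.009 to 0.064, ERN1 from -0.031 to 0.002 and DDIT3 from -0.131 to 0.064 in the mean, and HSP90B1 from -0.032 to 0.060 and DNAJC3 from -0.035 to 0.031 between siRNAs.

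Libraries with the same number deviated together little over all genes tested (correlations of -0.022, -0.026 and 0.049). Whether the numbers stand for a shared culture or day is not stated in these sources and was not tested. The replicate block left 3160 genes in the mean and changed no call among the 10, 2 in the mean as before. Reads limit SDF2L1 and CRELD2 most.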

Other observations

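Heat shock chaperones outside the ER were measured as a set beside the 10 genes. In the mean of both siRNAs 2 of 19 rose and 2 fell, beside 31.1% of all genes in either direction, with a median log2 fold change of 0.01. With siOGT1 2 rose and 2 fell, beside 17.6% of all genes, and with siOGT2 5 rose and 2 fell, beside 35.5%. HSPD1, named here after its values were seen, was called lower with siOGT1 and higher with siOGT2. It was also called lower with siOGT1 than with siOGT2. DNAJA1, a cytosolic J-domain protein, averaged 89.99 ± 1.83 FPKM with siOGT1 and 87.0 ± 5.54 with siOGT2, against 107.2 ± 3.37 with siNC, and fell by 0.27 on the log2 scale. AHSA1, which activates the Hsp90 ATPase, averaged 20.6 ± 0.595 and 19.7 ± 0.306 FPKM with siOGT1 and siOGT2, against 17.6 ± 0.156 with siNC, and the small heat shock gene HSPB1 105.1 ± 4.10 and 106.1 ± 3.16 against 91.0 ± 5.22. Both rose in limma, by 0.19 and 0.21.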
